A study of Mus musculus with 12 samples.

Results

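The effect of constitutively active IKKβ was measured across both Stat3 backgrounds of mouse oesophageal epithelium. All 12 libraries of the study were used, chosen by genotype alone: the 6 libraries that carry Cre beside the active allele were set against the 6 libraries without that pair, and Stat3 status was a term of the model. Each of the 4 genotype groups held 3 libraries from C57BL/6 mice aged 6 weeks. Control mice were ROSA26-StopFL-Ikk2ca+/L; Stat3L/L and had no Cre, so both alleles were silent or intact. Active IKKβ mice were ED/L2-Cre+; ROSA26-StopFL-Ikk2ca+/L. Stat3 loss mice were ED/L2-Cre+; Stat3L/L, with no Ikk2ca allele listed, and the combined mice carried ED/L2-Cre+ with both the Ikk2ca and the Stat3L/L alleles. ED/L2 is an Epstein-Barr virus promoter that drives Cre in the squamous epithelium of the oesophagus and not in the whole animal. Epithelium had been separated mechanically from the stroma before RNA isolation, and polyadenylated RNA was sequenced.

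Cre is spread unevenly over this comparison. All 6 libraries with active IKKβ carry Cre, and of the 6 libraries without it the 3 Control libraries do not. In the contrast of active IKKβ with Control the effects of Cre and of IKKβ cannot be told apart, while the contrast of combined with Stat3 loss has Cre on both sides. Nothing in the labels says whether the libraries of 1 group are from separate animals, and the p-values measure the spread between these libraries. Sex-linked transcripts differed within each group, so each holds at least 2 animals, and whether the other library is a further animal is not given, so part of the spread may be technical.

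IKKβ is the kinase that marks the IκB proteins for destruction and so frees NF-κB dimers to enter the nucleus. NF-κB then induces chemokines, cytokines and survival genes, and also its own inhibitors IκBα and A20, which close the loop. In squamous epithelium the pathway is known for calling in leukocytes and for its part in wound and inflammatory responses, where STAT3 is often active beside it. The comparison addresses which transcripts active IKKβ changed whether or not Stat3 had been deleted.

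Promoter sequence is shown for 3 genes the results turn on, the inhibitor gene Nfkbia, the precursor gene Nfkb2 and the chemokine gene Cxcl1. Each rose, and each holds a match to a κB-type motif. Other forms of κB site were not searched, so the shares below count this form only. The motif searched was GGGANNTTCC on both strands, in RefSeq windows of GRCm38.p6 that run from 250 bases before to 50 bases after a gene's start. The 250 bases before the start are given 5′ to 3′ on the strand of the gene, with the match in capitals. They lie at chr12:55492648-55492897 on the minus strand for Nfkbia, at chr19:46305445-46305694 on the plus strand for Nfkb2 and at chr5:90890995-90891244 on the plus strand for Cxcl1. The start used for Nfkb2 is 1 of its RefSeq starts and lies inside the gene as GENCODE M21 places it, from 46304320 to 46312385. The matches begin 29, 236 and 71 bases before the start, and the run of 11 capitals in Cxcl1 holds a match on each strand, with 9 bases in common.
Nfkbia: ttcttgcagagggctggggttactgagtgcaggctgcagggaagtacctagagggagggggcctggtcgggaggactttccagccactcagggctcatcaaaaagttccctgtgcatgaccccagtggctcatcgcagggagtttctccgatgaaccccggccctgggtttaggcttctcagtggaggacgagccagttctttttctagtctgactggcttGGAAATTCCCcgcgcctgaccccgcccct
Nfkb2: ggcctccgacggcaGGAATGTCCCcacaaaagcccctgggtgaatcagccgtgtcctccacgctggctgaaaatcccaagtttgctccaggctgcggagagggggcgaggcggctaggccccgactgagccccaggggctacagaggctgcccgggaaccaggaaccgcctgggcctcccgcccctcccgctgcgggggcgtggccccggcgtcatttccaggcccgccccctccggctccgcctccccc
Cxcl1: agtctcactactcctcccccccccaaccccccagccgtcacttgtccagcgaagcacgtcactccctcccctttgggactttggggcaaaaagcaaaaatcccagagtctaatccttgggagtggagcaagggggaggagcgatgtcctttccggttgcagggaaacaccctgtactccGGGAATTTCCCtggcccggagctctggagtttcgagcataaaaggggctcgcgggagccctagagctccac
Of 391 genes called in the pooled test 292 were matched to a RefSeq window. A match stood in 8 of 227 genes called higher (3.52%) and in 1 of 65 called lower (1.54%), beside 189 of 11149 tested genes with a window (1.7%) and 482 of all 32851 windows (1.47%). Nfkb2 has a further match just past the start shown, which also lies in a second Nfkb2 window that begins at 46305680. The other called genes with a match were B2m, Csf1, Ifngr2, Ltb and Neurl3, which rose and hold the same 10 letters, GGAAAGTCCC, and Eef2k, which fell. For 2 of them 50 bases around the match are shown, B2m at chr2:122147541-122147590 and Csf1 at chr3:107760594-107760643 on the minus strand.
B2m: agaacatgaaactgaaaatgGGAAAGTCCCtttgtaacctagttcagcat
Csf1: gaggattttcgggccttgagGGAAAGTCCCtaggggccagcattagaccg
A match is a description of these letters, not a bound site, and these shares carry no test.

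The libraries held 14816468 to 30188363 counts, and 14134 of 23337 gene symbols passed the filter on low counts. Sex-linked transcripts marked replicate 1 of each group as female and the others as male, so sex is balanced between the arms. All 17 markers of squamous epithelium were detected in both arms. Krt5 and Krt14, the keratins of the basal layer, had pooled log2 fold changes of -0.25 ± 0.17 and 0.03 ± 0.17 (standard error, SE). Krt4 and Krt13, the keratins of the layers above, stood at 0.43 ± 0.48 and 0.40 ± 0.40, and none of the 4 passed (edgeR adjusted p between 0.523 and 0.963). Together Krt4 and Krt13 took 4.05 to 13.8% of counts with active IKKβ and 5.22 to 13.9% without. The squamous markers summed to a median of 158810 CPM with active IKKβ and 96082 without, with ranges that overlapped. Active IKKβ replicate 1 and Stat3 loss replicate 3 were rich in gastric transcripts, with summed marker levels of 3584 and 430 CPM (counts scaled to a common library size by TMM-adjusted totals) against at most 36.1 in the other 10 libraries. Smooth muscle markers were detected as well and summed to 1087 to 4744 CPM.

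Ikbkb, the gene of IKKβ itself (chromosome 8, 22659212 to 22706589, minus strand, GENCODE M21 on mm10), was set beside the labels. Its level cannot verify them, as counts per gene symbol do not show whether transcripts of the Ikk2ca allele are included. Its level was 82.6, 60.7 and 59.7 CPM in Control and 72.4, 68.3 and 61.2 with Stat3 loss. It was 97.7, 84.6 and 94.1 with active IKKβ and 89.8, 83.4 and 97.0 in the combined group, so that no library of the first arm reached down to the other. The pooled log2 fold change was 0.43 ± 0.09 (edgeR adjusted p = 0.0244), 1.35-fold, although neither background alone gave a call (0.45 ± 0.14 and 0.42 ± 0.14). The call was fragile: it held without Control replicate 1, active IKKβ replicate 2, Stat3 loss replicate 1 or combined replicate 2, was lost without any of the other 8 libraries (highest adjusted p = 0.0801) and without both gastric-rich libraries (adjusted p = 0.103), and was lost with scaling by library totals (adjusted p = 0.345). Stat3 had 174, 157 and 179 CPM in Control, 139, 154 and 145 with Stat3 loss, 158, 222 and 239 with active IKKβ and 170, 154 and 194 in the combined group. Its Stat3 term of -0.24 did not pass (edgeR adjusted p = 0.357), nor did its IKKβ term of 0.26 ± 0.10 (edgeR adjusted p = 0.244). The 3 Stat3 loss libraries lay below the 3 Control libraries, while the combined libraries overlapped both Control and active IKKβ, and counts per gene cannot show whether floxed exons were missing.

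More genes were called higher than lower with active IKKβ. In the additive model 303 genes were called higher, 2.14% of the 14134 tested, and 88 were called lower, 0.623%, which is 2.77% in all (edgeR quasi-likelihood test, Benjamini-Hochberg adjusted p below 0.05). The numbers called on gene lists below are to be read beside these shares. At an unadjusted p below 0.05 there were 2211 genes. The excess of rises depended on the tool: DESeq2 called 553 higher and 310 lower, and limma-voom with quality weights 843 higher and 786 lower. The rises were large and the falls small: the median log2 fold change was 1.70 among genes called higher and -0.58 among genes called lower, and 235 of the 303 but 16 of the 88 changed at least 2-fold. For 56 genes the rise exceeded 8-fold. The median over all tested genes was 0.0011. The 6 libraries with active IKKβ all lay above the 6 without in 190 of the genes called higher and all below in 48 of those called lower. Over all tested genes this was so in 1.52% and 0.644%.

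The number of falls depended on single libraries more than the number of rises. With 1 library left out the genes called higher ran from 207 to 331 and those called lower from 32 to 140. The fallers numbered 32 without combined replicate 3 and 32 without Stat3 loss replicate 2, 38 without Control replicate 2, 39 without active IKKβ replicate 3 and 43 without Control replicate 1. They numbered 49 without Stat3 loss replicate 1, 49 without combined replicate 1, 52 without active IKKβ replicate 2 and 140 without Control replicate 3. Of the 391 genes 201 were called in each of these 12 fits, 177 higher and 24 lower. Scaling by library totals gave 209 higher and 31 lower, so that the share of rises among the calls was 87.1% in place of 77.5%, and the median of all genes shifted by -0.07. With only the 9 libraries that carry Cre, a contrast that rests on combined against Stat3 loss, 48 genes were higher and 1 was lower.

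**Figure D1:**
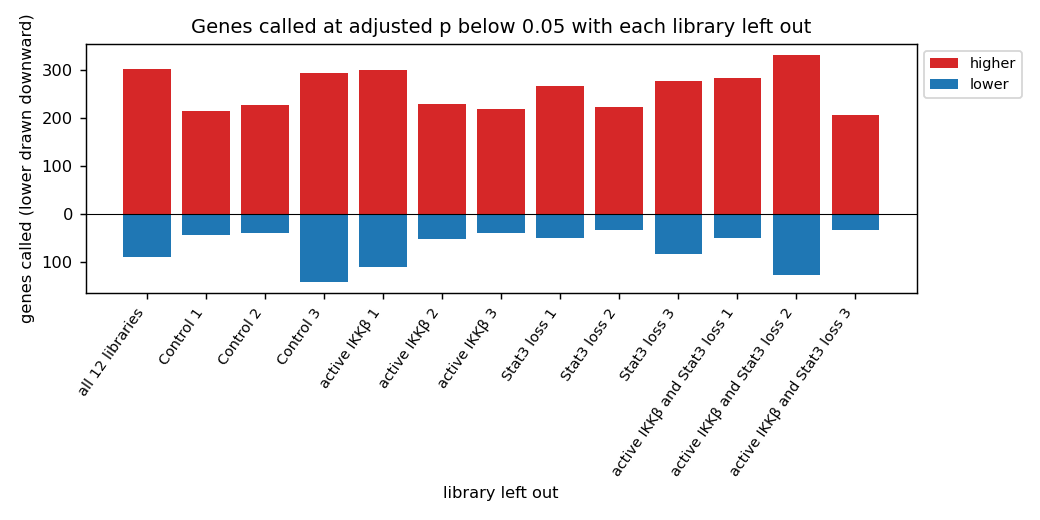
Genes called higher (red, upward) and lower (blue, downward) at an edgeR adjusted p below 0.05 in the pooled test with all 12 libraries and with each library left out in turn. The vertical axis counts genes. The rises stay between 207 and 331, and the falls range from 32 to 140.

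Of 18 tested inhibitors and subunits of NF-κB 9 were called higher and none lower, all 18 had a pooled log2 fold change above 0, and their median was 0.81, where 2.14% of all genes were called higher and the median was 0.0011. In 10 members all 6 libraries with active IKKβ lay above the 6 without, as in 1.52% of all genes. The count was 8 or 9 with any 1 library left out, 9 without both gastric-rich libraries, and 5 in the 9 Cre-carrying libraries alone. The list and these genes were chosen with earlier results of the same libraries known.

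Nfkbia (chromosome 12, 55489410 to 55492647, minus strand) encodes IκBα, which holds NF-κB in the cytoplasm. It had 119, 125 and 116 CPM in Control, 109, 93.4 and 103 with Stat3 loss, 264, 223 and 290 with active IKKβ and 189, 281 and 287 in the combined group. Every library with active IKKβ was above every library without, and combined replicate 1 was the lowest of the 6. The pooled rise was 1.21 ± 0.12 (edgeR adjusted p = 0.000127), 2.32-fold, with 1.11 ± 0.17 where Stat3 was intact and 1.31 ± 0.17 where it was lost.

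Tnfaip3 (chromosome 10, 19000910 to 19015657, minus strand) encodes A20, the ubiquitin-editing enzyme that shuts off signalling above IKK. Its level was 10.6, 15.1 and 6.48 CPM in Control, 11, 9.84 and 10.6 with Stat3 loss, 30.3, 24.3 and 25.8 with active IKKβ and 23.6, 29.9 and 48.0 in the combined group. The arms did not overlap, and combined replicate 3 stood above the rest. The pooled rise was 1.51 ± 0.21 (edgeR adjusted p = 0.0022). Tnip3, the gene of an A20-binding protein, was nearly silent without active IKKβ, at 0.0559 to 0.382 CPM, and reached 2.50 to 8.64 CPM with it, a rise of 5.12 ± 0.47 (edgeR adjusted p = 8.41e-05).

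Zc3h12a, which encodes the nuclease regnase-1 that degrades inflammatory messenger RNAs, went from 32.4 to 50.6 CPM without active IKKβ to 85.0 to 155 with it. The 3 combined libraries, at 103, 85.0 and 106 CPM, lay below the 3 active IKKβ libraries, at 155, 145 and 126. The pooled rise was 1.51 ± 0.14 (edgeR adjusted p = 8.99e-05). Relb and Nfkb2, the partners of the alternative NF-κB dimer, rose by 1.53 ± 0.16 and 0.86 ± 0.11 (edgeR adjusted p = 0.000296 and 0.000869). Nfkbie and Tnip1 were called too, as was Nfkbiz, which encodes the nuclear protein IκBζ, at 1.09 ± 0.24, a call that held without Control replicate 1 or 3, active IKKβ replicate 2, Stat3 loss replicate 1 or combined replicate 3 and was lost without any of the other 7 libraries (highest edgeR adjusted p = 0.0716). Bcl3, an atypical IκB gene that is also a STAT3 target, was at 0.91 ± 0.23 and did not pass (edgeR adjusted p = 0.0652), though it passed without Stat3 loss replicate 3 (adjusted p = 0.0164) and without combined replicate 2 (adjusted p = 0.0397).

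Upstream of NF-κB, 3 of 23 tested genes of the IKK complex and its adaptors were called higher (13%, where 2.14% of all genes were). Beside Ikbkb these were Traf2 and Traf3, adaptors of TNF family receptors, at 0.50 ± 0.08 and 0.44 ± 0.08 (edgeR adjusted p = 0.00745 and 0.0105). The arms did not overlap in any of the 3, and with scaling by library totals none of the 3 passed. Among 13 tested survival genes Birc3, which encodes the apoptosis inhibitor cIAP2, was the only call (7.69%, beside 2.77% of all genes). It had 9.18 to 13.9 CPM without active IKKβ and 21.2 to 31.9 with it, and rose by 1.11 ± 0.13 (edgeR adjusted p = 0.000705).

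Of 22 other NF-κB targets 3 were higher and 1 lower, 18.2% in all, where 2.77% of all genes were called. Steap4, a metalloreductase of the cell surface, had 3.80, 7.58 and 4.88 CPM in Control, 6.08, 6.94 and 3.76 with Stat3 loss, 62.5, 69.4 and 91.2 with active IKKβ and 35.2, 51.6 and 67.1 in the combined group. The arms lay far apart, and the rise was 3.48 ± 0.25 (edgeR adjusted p = 2.29e-05), 11.2-fold. Tnfaip2 rose by 2.63 ± 0.29 (edgeR adjusted p = 0.000481). Casp4, the gene of the inflammatory caspase that senses bacterial lipopolysaccharide, rose by 1.78 ± 0.20. Pdgfb fell by 0.89 ± 0.18 (edgeR adjusted p = 0.0205), a call lost without combined replicate 1 (adjusted p = 0.0519).

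**Figure D2:**
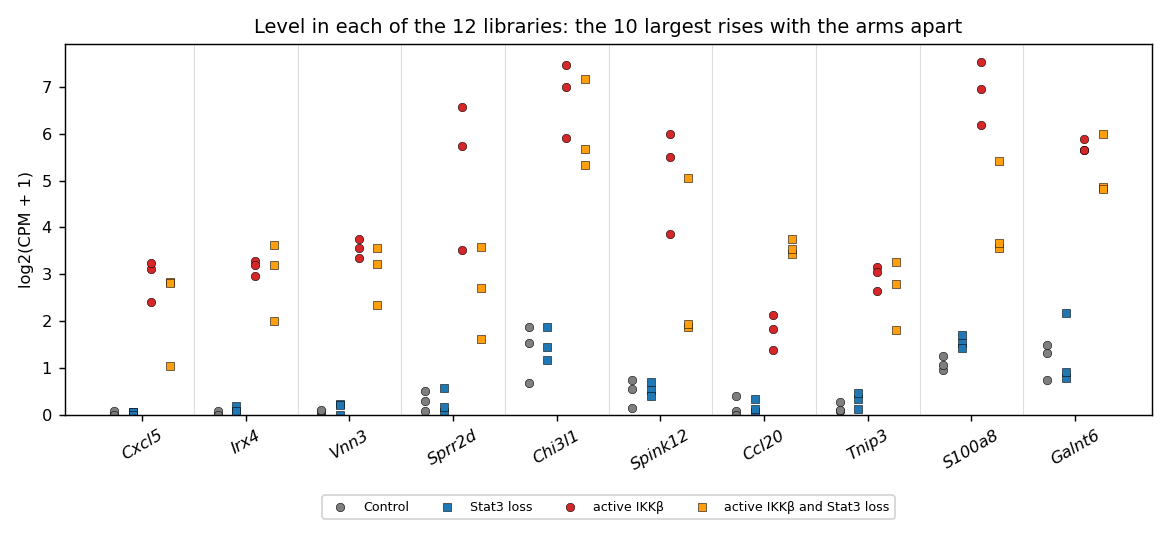
Level on a log2(CPM + 1) axis in each of the 12 libraries for the 10 called genes with the largest pooled rise among those with an average log2 CPM of at least 1 whose arms did not overlap, 1 point a library. Circles are libraries with intact Stat3 (grey without, red with active IKKβ) and squares those with Stat3 loss (blue without, orange with); every red and orange point lies above every grey and blue point of its gene, and in Ccl20 all 3 orange points lie above the red.

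Chemokines that draw neutrophils and Ccr6-bearing lymphocytes were among the largest rises. Of 9 tested CXC and CX3C chemokines 4 were called higher (44.4%, where 2.14% of all genes were), Cxcl5, Cxcl1, Cxcl16 and Cxcl14. The list median was 0.36, and 7 further members were too low to test. The call of Cxcl14 held only without Stat3 loss replicate 1 or combined replicate 1 (highest edgeR adjusted p = 0.147). Cxcl5 (chromosome 5, 90759360 to 90761624, plus strand), a ligand of the neutrophil receptor Cxcr2, was nearly silent without active IKKβ, at 0, 0.0523 and 0 CPM in Control and 0.0451, 0.0439 and 0 with Stat3 loss. With active IKKβ it had 7.71, 4.30 and 8.43 CPM and in the combined group 1.05, 6.16 and 6.02. The 6 libraries with active IKKβ held 690 counts and the 6 without held 3, a ratio of 240 in counts scaled by library size (95% exact counting interval 81.7 to 1166, which covers counting error only). The fitted log2 fold change, which at so few counts depends on the prior count, was 7.53 ± 0.67 (edgeR adjusted p = 7.88e-05), and combined replicate 1 was the lowest of its arm.

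Cxcl1, another Cxcr2 ligand, was low in all libraries, at 0 to 0.225 CPM without active IKKβ and 0.725 to 3.72 with it. It rose by 4.65 ± 0.77 (edgeR adjusted p = 0.00644), and neither background alone gave a call (edgeR adjusted p = 0.0805 with Stat3 intact and 0.153 with Stat3 lost). Cxcl16, a membrane-bound chemokine whose receptor is Cxcr6, had 8.55, 12 and 9.91 CPM in Control, 5.72, 7.51 and 9.11 with Stat3 loss, 40.1, 54.8 and 45.7 with active IKKβ and 28.6, 51.3 and 58.1 in the combined group. No library of either arm lay within the range of the other, and the rise was 2.41 ± 0.20 (edgeR adjusted p = 4.26e-05).

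Ccl20 (chromosome 1, 83116766 to 83119167, plus strand), the ligand of Ccr6, and Ccl22, a ligand of Ccr4, were the calls among 10 tested CC chemokines. That is 20%, where 2.14% of all genes were called higher. Ccl20 had 0.0559, 0.314 and 0 CPM in Control, 0.0451, 0.0879 and 0.273 with Stat3 loss, 3.36, 1.60 and 2.58 with active IKKβ and 9.76, 10.6 and 12.6 in the combined group. All 3 combined libraries were above all 3 active IKKβ libraries. The pooled rise was 5.49 ± 0.61 (edgeR adjusted p = 0.000386), with 4.38 ± 0.77 where Stat3 was intact and 6.35 ± 0.78 where it was lost. The difference of these, 1.96 ± 1.18, did not pass. Ccl22 rose by 2.65 ± 0.44 (edgeR adjusted p = 0.00681) with arms that overlapped.

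Among 15 tested chemokine receptors Cxcr6 and Cx3cr1 were called higher and Cxcr7 lower (20%, where 2.77% of all genes were called). At most 1 of these calls held when any 1 library was left out. Of the 17 neutrophil markers in the files 4 could be tested and 3 of these were above 0. The 2 called were S100a8 and S100a9, which also stand on the S100 list. The 17 markers summed to 63.4 to 2222 CPM with active IKKβ and 36.2 to 684 without, so the arms overlapped, and Elane was at 0 in all libraries. The highest sums were in the gastric-rich libraries, active IKKβ replicate 1 and Stat3 loss replicate 3. S100a8 and S100a9 gave 72.0 and 172 of the 2222 CPM in active IKKβ replicate 1. In active IKKβ replicate 3 they gave 185 and 608 of 823 CPM. The sum is therefore not a measure of neutrophils alone. Whether neutrophil content has a part in the chemokine results was not tested. In tissue RNA, fewer cells of a type and less RNA per cell cannot be told apart.

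Among cytokines Il23a rose (chromosome 10, 128296139 to 128298752, minus strand). It encodes the p19 subunit of IL-23, which sustains IL-17-producing lymphocytes. Its level was 0.168, 0.209 and 0.152 CPM in Control, 0.406, 0.0879 and 0.218 with Stat3 loss, 4.45, 2.76 and 5.37 with active IKKβ and 3.75, 6.74 and 5.02 in the combined group. The highest library without active IKKβ, Stat3 loss replicate 1, was far below the lowest with it. The rise was 4.47 ± 0.34 (edgeR adjusted p = 2.94e-05), with 4.54 ± 0.51 and 4.41 ± 0.50 in the 2 backgrounds. Il23a and Nfkbiz were the 2 called of 14 tested genes on the IL-17 and IL-23 list (14.3%, where 2.14% of all genes were called higher).

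Genes of colony stimulating factors and cytokine receptors were called higher in 5 of 14 tested cases, Il7r, Csf2rb, Il2rg, Csf1 and Il4ra. That is 35.7%, where 2.14% of all genes were, and the list median was 0.54. Il7r, the receptor chain of IL-7 and of the alarmin TSLP, had 0.109 to 0.406 CPM without active IKKβ and 1.0 to 3.61 with it, and rose by 3.16 ± 0.36 (edgeR adjusted p = 0.000455). Csf1, the macrophage growth factor, rose by 1.06 ± 0.19 (edgeR adjusted p = 0.0105). Of 28 tested members of the TNF superfamily 4 were higher (14.3%, where 2.14% of all genes were), Ltb, Tnfsf15, Tnfsf13 and Tnfrsf4. The number called on this list, which need not be the same genes, was 3 without Control replicate 1 or active IKKβ replicate 3, 0 without Stat3 loss replicate 2 and 1 or 2 without any of the other 9 libraries. Tnfsf15 was called in 1 of the 12 leave-outs and Ltb and Tnfrsf4 in 4 each. Il18r1, an IL-18 receptor chain, rose by 2.02 ± 0.41 (edgeR adjusted p = 0.0198), a call lost without Control replicate 1 (adjusted p = 0.0571). Il1r2, the decoy receptor of IL-1, was at -0.84 ± 0.17 (edgeR adjusted p = 0.021) and lost its call without Control replicate 2, active IKKβ replicate 3, Stat3 loss replicate 2, combined replicate 1 or combined replicate 3 (highest adjusted p = 0.0607).

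The classical acute cytokines gave no call. Tnf had 0 to 1.99 CPM without active IKKβ and 1.05 to 4.92 with it, and its 1.95 ± 0.89 did not pass (edgeR adjusted p = 0.321). Il1b and Il6 were under the count filter. Il1b had 26 counts over the 6 libraries with active IKKβ and 11 over the 6 without (exact permutation p = 0.085, two-sided, where 0.005 is the smallest that 400 rearrangements within Stat3 backgrounds allow). Il6 had 0 and 3 counts, all 3 in Stat3 loss replicate 2 (exact permutation p = 1). Of 30 tested genes of the IL-6 family and the JAK-STAT pathway none was called, where 2.77% of all genes is under 1 gene of such a list, and Socs3, the feedback inhibitor of STAT3 signalling, was at -0.07 ± 0.20 (edgeR adjusted p = 0.905).

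Some sensors of bacteria and secreted defence proteins were called higher. Of 25 tested Toll-like receptor and inflammasome genes 4 were higher (16%, where 2.14% of all genes were), Casp4, Nlrc5, Nod2 and Gsdmd, with a list median of 0.37. Nod2, the sensor of muramyl dipeptide, had 20.3 to 30.6 CPM without active IKKβ and 53.1 to 97.8 with it. It rose by 1.59 ± 0.15 (edgeR adjusted p = 0.000127), by 1.60 ± 0.23 and 1.58 ± 0.23 in the 2 backgrounds. Gsdmd, the pore-forming effector of pyroptosis, rose by 1.05 ± 0.21 (edgeR adjusted p = 0.0205) with overlapping arms, a call lost without active IKKβ replicate 3, Stat3 loss replicate 2 or combined replicate 3 (highest adjusted p = 0.056).

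Of 21 tested antimicrobial and chitinase-like genes 4 were higher (19%, where 2.14% of all genes were), with a list median of 0.74. Chi3l1, a chitinase-like protein of inflamed epithelia, had 0.615, 1.88 and 2.67 CPM in Control, 1.26, 1.71 and 2.67 with Stat3 loss, 59.4, 126 and 174 with active IKKβ and 39.5, 49.7 and 143 in the combined group. The lowest library with active IKKβ was above the highest without, and the rise was 5.73 ± 0.49 (edgeR adjusted p = 7.88e-05). Lcn2, which binds bacterial siderophores, rose by 4.66 ± 0.57 (edgeR adjusted p = 0.000869). Defb3, a beta-defensin, rose by 3.52 ± 0.57, and Chi3l4, which has near-identical copies that could take or give counts, by 2.96 ± 0.54.

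S100a8 and S100a9, the subunits of calprotectin, were the 2 called of 14 tested S100 genes (14.3%, where 2.14% of all genes were called higher). S100a8 had 1.40, 0.941 and 1.10 CPM in Control, 1.89, 2.24 and 1.69 with Stat3 loss, 72.0, 123 and 185 with active IKKβ and 10.8, 11.7 and 41.9 in the combined group. Both groups with active IKKβ were above both groups without, and all 3 combined libraries were below all 3 active IKKβ libraries. The pooled rise was 5.08 ± 0.69 (edgeR adjusted p = 0.00197). It averages 6.78 ± 0.63 with Stat3 intact and 3.46 ± 0.55 with Stat3 lost, a difference of -3.32 ± 0.77 that did not pass in edgeR and passed in DESeq2 (adjusted p = 0.0196). S100a9 was at 2.57 ± 0.56 (edgeR adjusted p = 0.031) with arms that overlapped, and its call held only without active IKKβ replicate 1, Stat3 loss replicate 3 or combined replicate 2 (highest adjusted p = 0.0954).

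Several keratins of wounded and of cornifying epithelium were called higher. Of 9 tested wound and stress keratins 4 were higher (44.4%, where 2.14% of all genes were), Krt16, Krt6b, Krt84 and Krt17. All 9 were above 0, and the median was 1.03. Krt16 had 4.42, 6.85 and 9.87 CPM in Control, 2.52, 3.21 and 3.82 with Stat3 loss, 132, 234 and 242 with active IKKβ and 32.9, 30.2 and 155 in the combined group. The arms did not overlap, combined replicates 1 and 2 were the lowest with active IKKβ, and the rise was 4.68 ± 0.45 (edgeR adjusted p = 0.000172). Krt6b, a near copy of Krt6a with which it may share reads, rose by 3.90 ± 0.64 (edgeR adjusted p = 0.00681). The number of called wound keratins was 2 without Control replicate 1, Control replicate 3, active IKKβ replicate 2, Stat3 loss replicate 2 or combined replicate 3, and 5 without both gastric-rich libraries.

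Of 14 tested layer keratins the 2 called were Krt10 and Krt1, the pair of cornifying skin (14.3%, where 2.14% of all genes were called higher). Krt10 had 24 to 59.7 CPM without active IKKβ and 161 to 505 with it, and rose by 3.26 ± 0.32 (edgeR adjusted p = 0.000191). Krt1 rose by 3.33 ± 0.64 (edgeR adjusted p = 0.0167), a call lost without active IKKβ replicate 3 (adjusted p = 0.0611). Among 49 tested cornified envelope genes 4 were higher (8.16%, where 2.14% of all genes were). All 4 are of the Sprr2 cluster on chromosome 3, whose members resemble each other so closely that counts may be misplaced among them. The list median was 0.78, and 46 members were above 0. The Krt4 and Krt13 share was 5.06, 13.8 and 12.8% with active IKKβ and 11.6, 4.05 and 13.4% in the combined group. It was 5.22, 6.22 and 13.9% in Control and 6.01, 6.62 and 10.4% with Stat3 loss, so the arms overlapped but were not evenly spread. The part of this share in the list median was not tested. Sprr2d had 0.0451 to 0.491 CPM without active IKKβ and 2.09 to 94.3 with it, and rose by 6.58 ± 0.87 (edgeR adjusted p = 0.00158). Called members fell to 1 without Control replicate 1, Control replicate 2, active IKKβ replicate 2 or Stat3 loss replicate 1, and to 2 without Control replicate 3, active IKKβ replicate 3, combined replicate 1 or combined replicate 3. With the share of counts in Krt4 and Krt13 as a term of the model, added after the values were seen, 6 envelope genes were called.

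Other squamous genes moved singly. Spink12, a Kazal-type protease inhibitor, had 0.105 to 0.671 CPM without active IKKβ and 2.65 to 63.1 with it, and rose by 5.68 ± 0.84 (edgeR adjusted p = 0.00343). Cgnl1, the junction protein paracingulin, rose by 1.26 ± 0.15 (edgeR adjusted p = 0.000629) and was the only call among 20 tight junction genes (5%, beside 2.77% of all genes). None of 22 desmosome and adhesion genes, 25 basement membrane genes and 18 genes of the EGF receptor family was called, where 2.77% of all genes were.

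**Figure D3:**
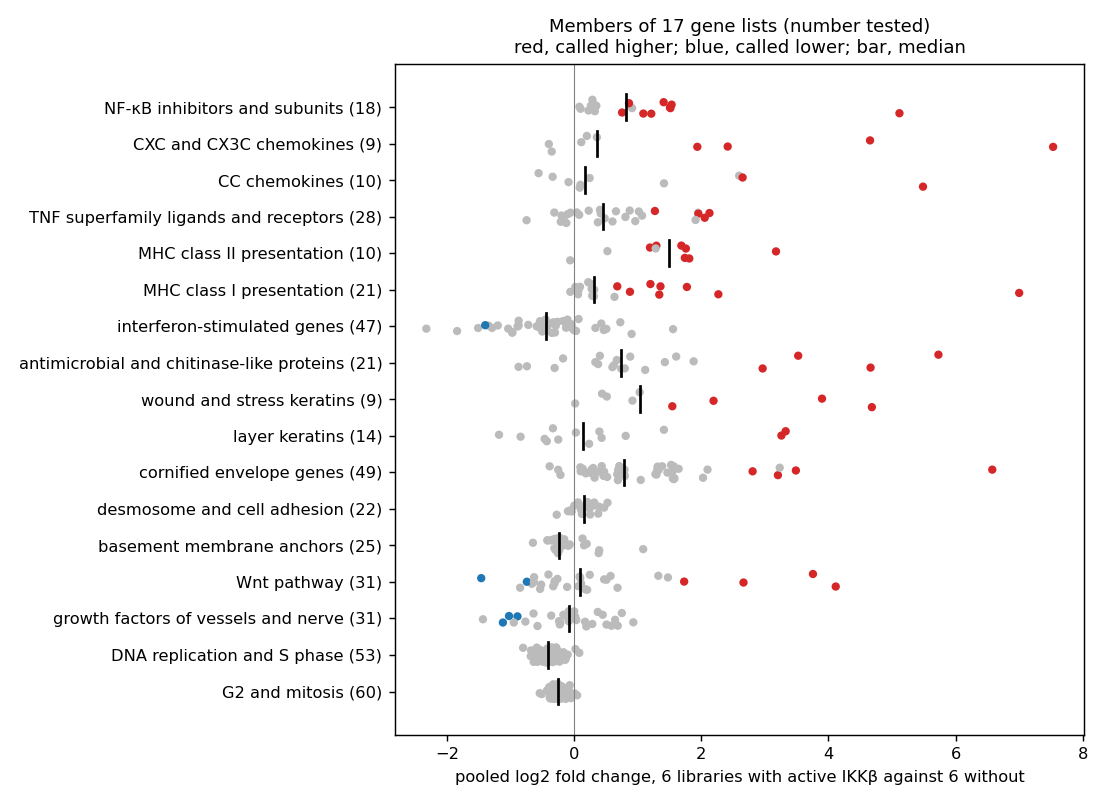
Pooled log2 fold change (horizontal axis) of each tested member of 17 gene lists, 1 point a gene, with the number tested in brackets and a black bar at the list median. Red points were called higher, blue points lower and grey points neither at an edgeR adjusted p below 0.05; the medians run from -0.44 for interferon-stimulated genes to 1.49 for MHC class II genes.

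Among transcription factors of squamous tissues Irx4 (chromosome 13, 73260479 to 73269608, plus strand), an Iroquois homeobox gene best known from the heart ventricle, went from silent to expressed. It had 0, 0.0523 and 0 CPM in Control, 0.135, 0.0439 and 0.0545 with Stat3 loss, 8.80, 8.12 and 6.75 with active IKKβ and 3.0, 8.13 and 11.3 in the combined group. All of its expression above 0.135 CPM was in libraries with active IKKβ. The pooled log2 fold change was 7.18 ± 0.54 (edgeR adjusted p = 2.45e-05), on 926 counts against 6. Tfap2c was called higher and Foxe1 lower among the other 33 tested, at 0.31 ± 0.07 and -0.91 ± 0.22, and most leave-outs ended both calls (highest edgeR adjusted p = 0.0764 and 0.115): Tfap2c held only without Control replicate 1 or combined replicate 2, and Foxe1 only without Control replicate 1, active IKKβ replicate 1 or combined replicate 1.

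Wnt genes moved in both directions. Of 31 tested 4 were higher, Wnt10b, Wif1, Lgr6 and Wnt5a, and 2 lower, Wnt6 and Dkk2, 19.4% in all, where 2.77% of all genes were called. Wnt10b (chromosome 15, 98770712 to 98778150, minus strand), a canonical Wnt ligand, had 0.447, 0.366 and 0.305 CPM in Control, 0.676, 1.01 and 0.273 with Stat3 loss, 8.51, 8.66 and 8.08 with active IKKβ and 6.36, 10.4 and 10.8 in the combined group. The arms were far apart, and the rise was 4.11 ± 0.30 (edgeR adjusted p = 2.45e-05). Wnt5a, the main non-canonical ligand, rose by 1.73 ± 0.19 (edgeR adjusted p = 0.000369). It also had a called Stat3 term of -1.18 (edgeR adjusted p = 0.025): its 3 combined libraries, at 6.96, 9.23 and 6.91 CPM, lay below the 3 active IKKβ libraries at 15.2, 26.5 and 22.1. Lgr6, a receptor for R-spondins, rose by 2.66 ± 0.45 (edgeR adjusted p = 0.00789). Wnt6 fell by 0.75 ± 0.15 (edgeR adjusted p = 0.0172), a call lost without Control replicate 2 (adjusted p = 0.0517).

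In the Notch pathway Jag1, a ligand, rose by 0.64 ± 0.11 (edgeR adjusted p = 0.00673), and Dtx4, a Deltex ubiquitin ligase, by 1.02 ± 0.22 (edgeR adjusted p = 0.0254). These were 2 of 22 tested, 9.09%, where 2.14% of all genes were called higher. Both missed with scaling by library totals (edgeR adjusted p = 0.0792 for Jag1 and 0.0774 for Dtx4), and Dtx4 lost its call without Control replicate 1 or 2, active IKKβ replicate 2 or 3, Stat3 loss replicate 3 or combined replicate 2. Growth factors of vessels and nerve gave 3 falls and no rise among 31 tested (9.68%, where 0.623% of all genes were called lower), Pdgfb, Gdnf and Artn. Gdnf and Artn are ligands of the same family, which act on neurons through Ret. Gdnf had 6.88, 6.85 and 6.48 CPM in Control, 8.74, 9.75 and 5.95 with Stat3 loss, 3.40, 2.71 and 1.93 with active IKKβ and 4.0, 4.12 and 4.76 in the combined group. The arms did not overlap, Stat3 loss replicate 3 being the lowest without active IKKβ, and the gene fell by 1.12 ± 0.18 (edgeR adjusted p = 0.00586). Artn, at -1.03 ± 0.22 (edgeR adjusted p = 0.0246), lost its call without Control replicate 1 or 2, active IKKβ replicate 2, Stat3 loss replicate 2 or combined replicate 1 or 3 (highest adjusted p = 0.0644).

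Enzymes of redox and lipid mediator metabolism changed in single members. Of 40 tested redox genes 4 were higher, Vnn3, Noxa1, Steap4 and Noxo1, and 1 lower, Cat, 12.5% in all, where 2.77% of all genes were called. Vnn3, a vanin that splits pantetheine, had 0 to 0.18 CPM without active IKKβ and 4.05 to 12.5 with it, and rose by 6.75 ± 0.53 (edgeR adjusted p = 3.22e-05). Noxo1, which with Noxa1 assembles the NADPH oxidase Nox1, had 1.83 to 4.19 CPM without and 15.6 to 25.7 with active IKKβ, and rose by 2.91 ± 0.24 (edgeR adjusted p = 5.29e-05). Cat, the gene of catalase, fell by 0.58 ± 0.11 (edgeR adjusted p = 0.0124), from a median of 234 to 162 CPM. Hpgds, a prostaglandin D synthase, rose by 2.60 ± 0.44 (edgeR adjusted p = 0.00725).

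Galnt6 (chromosome 15, 100691813 to 100729376, minus strand), which starts mucin-type O-glycans, was the only call among 29 tested mucin and O-glycosylation genes. That is 3.45%, near the 2.77% called of all genes, so the count is no result about the list. Galnt6 is described as a single gene. It had 0.671, 1.83 and 1.49 CPM in Control, 0.721, 0.879 and 3.49 with Stat3 loss, 49.0, 48.9 and 58.0 with active IKKβ and 28.0, 27.2 and 62.5 in the combined group. The rise was 4.91 ± 0.43 (edgeR adjusted p = 8.4e-05), 30.1-fold. Stra6, the cell-surface receptor for retinol-binding protein, rose by 3.23 ± 0.56 (edgeR adjusted p = 0.0102), and Aldh1a1, which makes retinoic acid, fell by 0.90 ± 0.16 (edgeR adjusted p = 0.0122). Herpud1 and Dnajb9, which act in the disposal of misfolded proteins of the endoplasmic reticulum, each rose by 0.71, with SE 0.09 and 0.12 (edgeR adjusted p = 0.000846 and 0.00874). They were the 2 calls among 25 genes of the unfolded protein response (8%, where 2.14% of all genes were called higher).

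Genes of MHC class II, which show antigen to helper T cells, had the largest share of calls of any list with at least 10 tested members. Of 10 tested MHC class II genes 7 were higher (70%, where 2.14% of all genes were), with a median of 1.49. H2-Aa, a class II chain, had 27.3, 54.4 and 18.2 CPM in Control, 27.9, 27.9 and 11.5 with Stat3 loss, 148, 128 and 116 with active IKKβ and 33.2, 104 and 54.0 in the combined group. Control replicate 2 lay above the lowest 2 combined libraries, so the arms overlapped, as they did in all but 1 of the 10 genes. The rise was 1.74 ± 0.34 (edgeR adjusted p = 0.0196) and was lost without Control replicate 1 (adjusted p = 0.0598). The number of class II calls was 2 without Control replicate 1, 4 without both gastric-rich libraries, 2 with scaling by library totals and 0 in the Cre-carrying libraries alone.

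Of 10 tested markers of dendritic and Langerhans cells 3 were higher (30%, where 2.14% of all genes were), Flt3, Cd207 and Itgax. The median was 0.93 with 3 members below 0, and Flt3 lost its call without Control replicate 1 or 2 (highest edgeR adjusted p = 0.0546). Cd207, which encodes langerin, had 3.69, 4.13 and 2.51 CPM in Control, 2.03, 2.42 and 0.818 with Stat3 loss, 21.1, 19.8 and 18.1 with active IKKβ and 3.60, 16 and 8.32 in the combined group. Combined replicate 1 was within the range of the libraries without active IKKβ for both H2-Aa and Cd207. The rise of Cd207 was 2.45 ± 0.34 (edgeR adjusted p = 0.00188) and that of Itgax, which encodes CD11c, 2.18 ± 0.30 (edgeR adjusted p = 0.00196). The 15 dendritic markers together summed to 187 to 270 CPM with active IKKβ and 207 to 291 without, with medians of 244 and 246. Such a sum is set by its most abundant members. The mean log2(CPM + 1) over these markers was 2.01, 1.96 and 1.94 with active IKKβ and 1.40, 1.81 and 1.68 in the combined group. It was 1.43, 1.72 and 1.31 in Control and 1.47, 1.40 and 1.20 with Stat3 loss. The part of these cells in the class II result was not tested.

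Of 21 tested MHC class I genes 8 were higher (38.1%, where 2.14% of all genes were), with a median of 0.31 and 20 members above 0. The 8 were H2-M2, H2-Q6, Nlrc5, Psmb8, H2-Q4, B2m, H2-K1 and Tap2. H2-K1, a classical heavy chain, had 183, 259 and 192 CPM in Control, 170, 149 and 180 with Stat3 loss, 381, 383 and 369 with active IKKβ and 260, 336 and 345 in the combined group. The arms met but did not overlap, since combined replicate 1, at 260 CPM, was just above Control replicate 2, at 259. The rise was 0.88 ± 0.11 (edgeR adjusted p = 0.000869). H2-M2, a non-classical chain, had 216 counts with active IKKβ and 1 count, in Control replicate 2, without, a ratio of 225 (95% exact counting interval 39.99 to 8935). Near-identical class I genes may exchange counts. The class I count was 6 to 8 with any 1 library left out and 6 without both gastric-rich libraries. It was 5 with scaling by library totals and 2 in the Cre-carrying libraries alone.

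Of 47 tested interferon-stimulated genes 1 was called, Xaf1, which was lower. That is 2.13%, near the 2.77% called of all genes, and the list median was -0.44 with 38 members below 0, against 7036 of all 14134 genes. Xaf1 had 1.98 to 6.62 CPM without active IKKβ and 0.994 to 1.93 with it. It fell by 1.40 ± 0.30 (edgeR adjusted p = 0.0239), a call lost without Control replicate 2, active IKKβ replicate 2 or combined replicate 3 (highest adjusted p = 0.0732) and without both gastric-rich libraries (adjusted p = 0.0535). The number called on the list was 5 without active IKKβ replicate 1, 2 without Stat3 loss replicate 2 and 4 without both gastric-rich libraries. It was 5 with the replicate block or a sex term, 5 in DESeq2 and 12 in limma-voom.

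Of the genes of cell division 1 was called. Of 53 tested genes of DNA replication 51 were below 0, with a median of -0.42, and 1 was called, the polymerase gene Pola1 at -0.49 ± 0.11 (edgeR adjusted p = 0.0366), a call lost without Control replicate 1 or 2, active IKKβ replicate 1 or 2, Stat3 loss replicate 1 or 2 or combined replicate 3. The number called on the replication list was 12 without Control replicate 3, 3 without combined replicate 2 and 2 without combined replicate 1, and it was 10 in DESeq2 and 20 in limma-voom. Of 60 genes of G2 and mitosis 58 were below 0, with a median of -0.26, and none was called. The mitosis median was -0.57 with Stat3 intact and 0.08 with Stat3 lost, a difference that was not tested. No gene was called among 27 immediate early genes, 19 clock genes, 23 glycolysis genes and 33 nuclear genes of oxidative phosphorylation, and at the 2.77% called of all genes each of these lists would hold under 1.

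Among markers of other cell types, Blk, a kinase of B cells, was the only B and plasma cell marker with enough counts to test, rose by 4.05 ± 0.66 (edgeR adjusted p = 0.00588) and stood at 4.78 CPM in active IKKβ replicate 1 against 0.774 to 1.5 in the other 5 libraries of its arm. Ms4a1, a defining B cell gene, was at 0 in all 12 libraries. Of 17 tested macrophage markers 1 was called (5.88%, beside 2.77% of all genes), and the 18 in the files summed to 152 to 475 CPM with active IKKβ and 110 to 229 without. T and NK cell markers had a median of 1.17 with 8 of 10 above 0, none passed, and all 22 in the files summed to 12.1 to 32.7 CPM with active IKKβ and 10.9 to 40.1 without. None of 14 fibroblast, 13 endothelial, 10 smooth muscle, 17 skeletal muscle, 10 adipocyte, 9 nerve and 5 gastric markers tested was called, which at 2.77% of all genes is no result about these lists. Fibroblast markers had a median of -0.48 and summed to 732 to 1916 CPM with active IKKβ and 953 to 2901 without. Skeletal muscle markers were uneven between libraries, at 58.3 to 1087 CPM with active IKKβ and 27.7 to 2157 without. Their median was 2.02 with Stat3 intact and -2.90 with Stat3 lost. Whether muscle content has a part in other results was not tested.

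**Figure D4:**
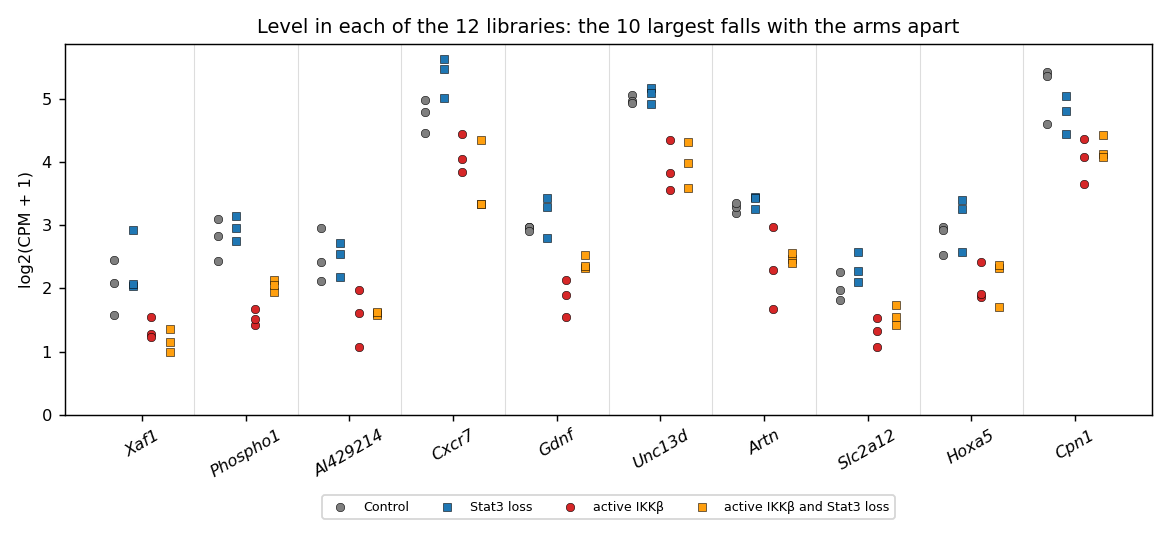
Level on a log2(CPM + 1) axis in each of the 12 libraries for the 10 called genes with the largest pooled fall among those with an average log2 CPM of at least 1 whose arms did not overlap, drawn as in the plot of the largest rises. Every red and orange point lies below every grey and blue point of its gene; the falls run from -0.87 for Cpn1 to -1.40 for Xaf1 and are far smaller than the rises.

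The largest falls with separate arms and an average log2 CPM of at least 1 were Xaf1, Phospho1, AI429214, Cxcr7, Gdnf, Unc13d, Artn, Slc2a12, Hoxa5 and Cpn1. Phospho1, a phosphatase known from bone mineral, had 6.09, 7.53 and 4.42 CPM in Control, 7.84, 6.72 and 5.73 with Stat3 loss, 2.18, 1.69 and 1.85 with active IKKβ and 3.40, 2.85 and 3.14 in the combined group. All 3 combined libraries were above the 3 active IKKβ libraries, and all 6 were below the rest. It fell by 1.38 ± 0.19 (edgeR adjusted p = 0.00158). Phospho1, Gdnf and Unc13d were called with any 1 library left out. Xaf1 and Artn are described above. Slc2a12, a glucose transporter gene, lost its call without Control replicate 1, Stat3 loss replicate 2 or combined replicate 3, and AI429214 without these or active IKKβ replicate 3 or Stat3 loss replicate 1. Cxcr7, an atypical receptor that clears Cxcl12, and the homeobox gene Hoxa5 were called only without Control replicate 3, active IKKβ replicate 1, Stat3 loss replicate 3 or combined replicate 2. Cpn1, the catalytic chain of carboxypeptidase N, was called without the same libraries or Stat3 loss replicate 1. The highest edgeR adjusted p of these 5 genes was 0.089, for Hoxa5.

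Pooling the backgrounds called genes that neither background called alone. The contrast of active IKKβ with Control called 135 genes, 0.955% of those tested, and that of combined with Stat3 loss 65, 0.46%. Of the 391 pooled calls 52 were also called in both contrasts, 70 with Stat3 intact only and 8 with Stat3 lost only, and 261 in neither, 178 of them higher and 83 lower. A further 13 and 5 genes were called in 1 contrast and not in the pooled test. The pooled test uses the libraries of both contrasts, so these counts describe where calls fell and are no independent evidence. The count with Stat3 intact was 42 to 63 without Control replicate 1 or 2 or active IKKβ replicate 2 or 3. The count with Stat3 lost was 20 to 42 without any Stat3 loss library, Control replicate 1 or 2, active IKKβ replicate 2 or 3 or combined replicate 2 or 3. The number called in neither was 163 without Stat3 loss replicate 2 and 156 without combined replicate 3.

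Unc13d (chromosome 11, 116062095 to 116077961, minus strand), which encodes the granule exocytosis factor Munc13-4, was among the 10 of these genes with the smallest pooled adjusted p. It had 32.4, 30.2 and 29.4 CPM in Control, 34.9, 33.1 and 29.0 with Stat3 loss, 19.3, 13.2 and 10.7 with active IKKβ and 18.9, 11 and 14.9 in the combined group. The arms did not overlap, and the standard deviation was 3.76 CPM with active IKKβ and 2.32 CPM without. It fell by 1.10 ± 0.15 (edgeR adjusted p = 0.00198), while its contrasts of -1.09 and -1.11 just missed (edgeR adjusted p = 0.0551 and 0.0811).

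Rises of the same kind were H2-Q4 at 1.34 ± 0.19, Bai2, an adhesion receptor gene, at 1.62 ± 0.25, Vwa2 at 1.11 ± 0.17, Olfml2a at 2.74 ± 0.44, Amz1 at 2.17 ± 0.35 and Cd72 at 2.26 ± 0.37. Rhbdf2, which encodes iRhom2, the partner of the TNF-releasing protease Adam17, had 23.1 to 40.3 CPM without active IKKβ and 45.5 to 68.3 with it, and rose by 0.72 ± 0.11 (edgeR adjusted p = 0.00475). Falls were Sipa1l3 at -0.62 ± 0.10, from 206 to 253 CPM without to 129 to 174 with active IKKβ, and S1pr5, a receptor for sphingosine 1-phosphate, at -0.57 ± 0.09 (edgeR adjusted p = 0.00491 and 0.00548). All 10 stayed called with any 1 library left out, and Bai2 was the only one whose arms overlapped.

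The smallest pooled adjusted p belonged to Slc1a3 and 9 further genes, all of them higher with active IKKβ. Slc1a3 (chromosome 15, 8634124 to 8710764, minus strand), a glutamate and aspartate transporter, had 2.35, 1.62 and 1.68 CPM in Control, 1.53, 2.20 and 1.04 with Stat3 loss, 25.6, 43.6 and 33.7 with active IKKβ and 21.8, 35.4 and 39.1 in the combined group. Its lowest library with active IKKβ was far above its highest without. The rise was 4.26 ± 0.23 (edgeR adjusted p = 4.29e-06), with 4.19 ± 0.34 and 4.32 ± 0.34 in the 2 backgrounds. Rassf6, a Ras-association domain gene, rose by 3.16 ± 0.19 (edgeR adjusted p = 8.49e-06), from 0.571 to 1.10 CPM to 5.66 to 9.16.

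Trnp1, a nuclear protein gene, rose by 1.52 ± 0.11 (edgeR adjusted p = 2.29e-05), with 11.2 to 14.2 CPM without active IKKβ and 28.9 to 41.6 with it. Lrrc32, which encodes GARP, the membrane dock of latent TGFβ, rose by 3.30 ± 0.24 (edgeR adjusted p = 2.45e-05), from 3.63 to 8.68 CPM to 37.9 to 77. The other genes of this kind were Steap4, Wnt10b, Irx4, Il23a, Vnn3 and Cxcl16, described above. All 10 were also called in each contrast alone, and in the 9 Cre-carrying libraries alone their adjusted p ranged from 0.00447 to 0.0141.

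**Figure D5:**
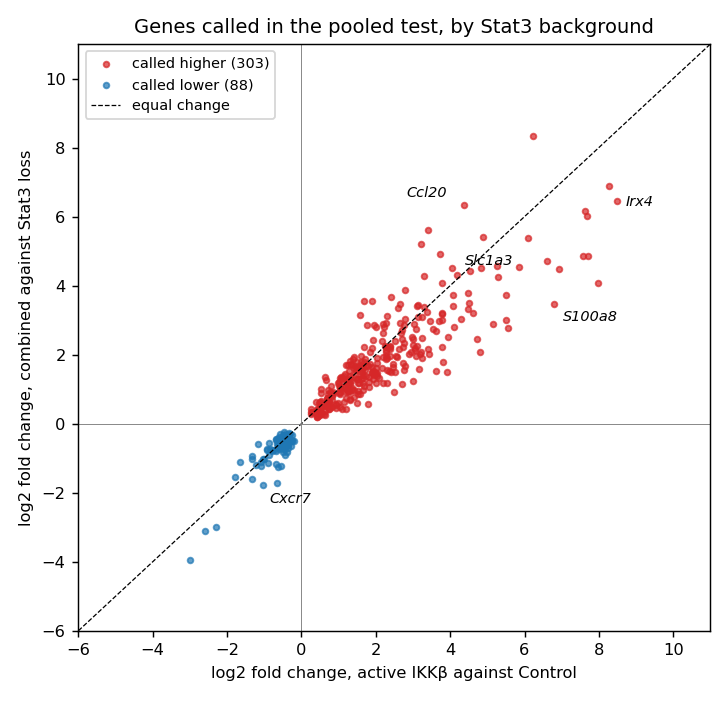
Log2 fold change of active IKKβ against Control (horizontal) and of combined against Stat3 loss (vertical) for the 391 genes called in the pooled test, 1 point a gene, with red for 303 called higher, blue for 88 called lower and a dashed line of equal change. The 2 contrasts share no library; the pooled call rests on both, so points in the upper right and lower left are in part chosen, and S100a8 and Ccl20 lie below and above the line.

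The pooled model assumes that active IKKβ acts alike in both backgrounds. The test of that assumption, the interaction, called 0 genes in edgeR (0% of 14134), with 658 at an unadjusted p below 0.05, and DESeq2 called 5, Irak3, Kcna7, Lpin1, Phf15 and S100a8. A p that misses the threshold does not show that the effects are equal. Genes called higher had a median of 1.80 with Stat3 intact and 1.58 with Stat3 lost, and 206 of 303 had the larger rise with Stat3 intact. Genes called lower had medians of -0.55 and -0.61, and 31 of 88 had the larger fall with Stat3 intact. Of the 391, 18 had an unadjusted interaction p below 0.05 in edgeR, S100a8, Cxcr7 and Zc3h12a among them. That share is no larger than the 658 of 14134 over all tested genes, so the count does not show that these 18 differ between backgrounds. Among them S100a8 passed in DESeq2 (DESeq2 adjusted p = 0.0196).

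For the 5 genes with the smallest interaction p the pooled value lies between unlike values. Irak3, which encodes IRAK-M, an inhibitor of Toll-like receptor signalling, had 2.07, 2.40 and 1.91 CPM in Control, 2.88, 3.51 and 1.75 with Stat3 loss, 7.14, 6.63 and 9.20 with active IKKβ and 1.95, 2.90 and 2.09 in the combined group. It was high in the active IKKβ group alone. Its change was 1.85 ± 0.30 with Stat3 intact and -0.23 ± 0.30 with Stat3 lost, and the pooled value of 0.82 ± 0.38 did not pass (edgeR adjusted p = 0.317). Kcna7, a potassium channel gene, was at 2.30 ± 0.43 and -1.50 ± 0.43 in the same order. Lpin1, a phosphatidic acid phosphatase gene, was at 0.34 ± 0.20 and -1.13 ± 0.21, Phf15 at 0.47 ± 0.16 and -0.77 ± 0.16, and Sox6, a transcription factor gene, at 0.59 ± 0.18 and -0.64 ± 0.18. These were chosen by the interaction, and none of the 5 interactions passed in edgeR.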

How the data were processed

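RNA from 12 libraries of mouse oesophageal epithelium was sequenced after polyA selection. The authors deposited 1 table of read counts per gene symbol for each library. Per the submitters' processing notes the tools were cutadapt 1.13, STAR, HTSeq 0.6.1p1 and DESeq2, with the mm10 build. The annotation and the strand setting were not given in the sources used here, so overlapping, antisense and near-identical genes may share or lose counts. No DESeq2 output of the authors was used.

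The deposited counts were tested with edgeR 4.0.16 in R 4.3.3 (filterByExpr, TMM scaling, robust quasi-likelihood fit) in a model with a term for active IKKβ and a term for Stat3 status. Within-background contrasts and the interaction came from a model of all 4 groups. Fold changes are the log2 values of the edgeR fit at its default prior count, and a standard error is the log2 fold change divided by the square root of F. A prior count of 2 was used only for the log2 CPM from which deviations of libraries were correlated. The p-values were adjusted by Benjamini and Hochberg over all 14134 tested genes, with a threshold of 0.05. CPM use TMM-scaled totals. Genes under the filter were tested by an exact permutation within Stat3 backgrounds. The procedure was tested on simulated data.

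Genes were named by rule: the 10 highest and 10 lowest called changes with separate arms and an average log2 CPM of at least 1, the 10 smallest adjusted p, the 10 smallest among genes called in neither background, the 5 smallest interaction p, up to 4 called members of each list and a set of pathway and keratin genes. The members, lists and rule were chosen with earlier results of these data known. Positions come from GENCODE M21, where 20915 symbols had 1 position, and promoters from RefSeq on GRCm38.p6. Alternatives were other size factors, library totals, other count filters, DESeq2 1.42.0, limma 3.58.1 (voom), no robust estimation, other terms and fewer libraries. No pair of libraries agreed within sampling noise by a chi-square test of their counts.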

Additional observations from a re-analysis of the deposited data

Results flagged for a closer look

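In 15 of 284 sets of 6 libraries (5.28%) 1 library stood apart from the other 5 by Dixon's criterion, and chance gives about 1 in 20. Where active IKKβ was absent, Control replicate 3 was low for Casp4 at 3.24 CPM, with the next at 5.75, and high for Sprr2b at 1.14 (next 0.559) and Serpinb3c at 91.7 (next 20.8). Control replicate 2 was high for Cxcr6 at 0.784 CPM (next 0.315), for Ltb at 0.575 (next 0.224) and for H2-M2 at 0.0523, where the other 5 libraries had 0. Stat3 loss replicate 2 was low for Vwa2 at 1.49 CPM (next 2.34) and high for S1pr5 at 71.4 (next 56.7).

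Among libraries with active IKKβ, active IKKβ replicate 1 was high for Blk at 4.78 CPM (next 1.5), for the summed B and plasma cell markers at 5.86 (next 2.21) and for the summed gastric markers at 3580 (next 29.3). Active IKKβ replicate 2 was high for Dnajb9 at 22.6 CPM (next 17.5). Combined replicate 1 was low for H2-K1 at 260 CPM (next 336), combined replicate 2 was low for Tmprss4 at 68.3 (next 213), and combined replicate 3 was high for Tnfaip3 at 48.0 (next 30.3).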

How the results depend on the processing

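No called gene changed direction under any setting, 39 genes, all higher, were called under every setting, and each setting below is set against 303 genes higher, 88 lower, 135 called with Stat3 intact, 65 with Stat3 lost, 261 called in neither background and 0 interactions. Scaling by library totals gave 31 lower, 66 with Stat3 intact and 29 with Stat3 lost. DESeq2's Wald test gave 553 higher, 310 lower, 419 and 292 in the 2 backgrounds, 427 in neither and 5 interactions. Limma-voom with quality weights gave 843 higher, 786 lower, 2955 with Stat3 intact and 212 with Stat3 lost. Without both gastric-rich libraries 83 and 28 genes were called in the 2 backgrounds. In the Cre-carrying libraries alone 48 were higher and 1 was lower; that setting drops 3 libraries and all that lack Cre, which cannot be told apart. The Krt4 and Krt13 share as a term, added after the data were seen, gave 530 higher and 289 lower. The cause of these shifts was not tested.

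Leaving out 1 library gave 207 to 331 higher, 32 to 140 lower, 42 to 145 with Stat3 intact, 20 to 81 with Stat3 lost, 156 to 349 in neither and 0 to 0 interactions. The replicate block gave 382 higher, 147 lower, 173 with Stat3 intact, 71 with Stat3 lost, 367 in neither and 0 interactions. Same-numbered libraries of different groups had deviations correlated from -0.41 to 0.45, with a median of 0.10 and 9 of 18 above 0.1. Differently numbered libraries of different groups ran from -0.54 to 0.39, with a median of -0.06 and 12 of 36 above 0.1. Of the 12 libraries 8 correlated best with their own number, a hint from the data that the design does not state. Replicate 1 was female in each group, and a sex term in place of the block gave 354 higher and 114 lower. As not every pair exceeded 0.1, the numbers were not used as a pairing.

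Signs turned only in genes that did not pass. Krt14 was at -0.029 with library totals, -0.16 with voom and -0.12 without the gastric-rich libraries, and with 1 library left out ranged from -0.073 to 0.13. Sox6 was at 0.026 with voom and ranged from -0.12 to 0.14, and Socs3 ranged from -0.25 to 0.043. In the Cre-carrying libraries alone Kcna7 was at -1.50 and Irak3 at -0.23, and with the keratin share as a term Krt4 was at -0.027. With 3 libraries a group, low genes such as Il1b and Il6 cannot be resolved at this depth.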
